A study of Mus musculus with 18 samples.

Results

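The genes described here are those of cholesterol synthesis and of the SREBP2 system that controls it, listed by name and role as 30 symbols, with no measured value in the rule. Of these, 29 were found among the 22558 genes of the deposited tables. The symbol Msmo1 is absent because the tables list that gene under its older name Sc4mol. Hmgcs1, the gene of cytosolic HMG-CoA synthase, is listed at 0 in all 18 libraries, and the tables place it on sequence assigned to chromosome 13 but not positioned on it, so it has no usable value here. The other 28 genes passed the filter on low counts, with at least 73 fragments each in every retinal library and at least 154 in every RPE/choroid library.

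The libraries came from mice 30 days old that were Abca4-/- (KO), homozygous for the Abca4 allele with the substitutions L541P and A1038V (KI) or wild type (WT), all on a mixed 129SV and C57BL/6 background. Abca4 encodes a transporter of photoreceptor outer segments that clears retinoid adducts. Each genotype has 3 retinal and 3 RPE/choroid libraries of total RNA depleted of ribosomal RNA. The labels do not describe how the alleles were made, how many mice or eyes went into a library, or whether a group's libraries stem from different animals. The p-values therefore measure the spread between these libraries, which may be technical. By the sex calls given below, KO retina, WT retina and KI RPE/choroid each held libraries of both sexes, and so of more than 1 animal. For the other groups this is unknown. Libraries are named by genotype and by the number they carry in the deposited tables, 0 to 2.

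Cholesterol is built from acetyl-CoA. The mevalonate pathway leads to farnesyl diphosphate, squalene synthase and squalene epoxidase commit it to sterols, and a chain of demethylases, reductases and isomerases turns lanosterol into cholesterol. The transcription factor SREBP2, held in the endoplasmic reticulum by SCAP and INSIG proteins when sterol is plentiful, is released by a pair of Golgi proteases when sterol is low and raises the transcription of these enzymes. In the eye, photoreceptors renew membrane-rich outer segments every day, and the retinal pigment epithelium (RPE) takes up both shed outer segments and lipoprotein from the choroidal blood supply.

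SREBP binds sterol regulatory elements and acts with the factor NF-Y, which binds CCAAT boxes, so the promoters of these genes show what the members share in sequence. RefSeq windows of the 250 bases before the gene start, build GRCm38.p6, with several for some genes, were available for 24 of the 29 genes and not for Sqle, Fdft1, Fdps, Acat1 or Stard4. The 4 windows shown are of Insig1, which had the highest mean level per length in RPE/choroid, of Sc4mol, of Ggps1, the isoprenoid branch enzyme, and of Hmgcs1, the only one of the 24 with the element searched. Each is written 5′ to 3′ on the strand of the gene, and capitals mark CCAAT or its reverse complement ATTGG and, in Hmgcs1, the sterol regulatory element.
Insig1 promoter, chr5:28071162-28071411, plus strand: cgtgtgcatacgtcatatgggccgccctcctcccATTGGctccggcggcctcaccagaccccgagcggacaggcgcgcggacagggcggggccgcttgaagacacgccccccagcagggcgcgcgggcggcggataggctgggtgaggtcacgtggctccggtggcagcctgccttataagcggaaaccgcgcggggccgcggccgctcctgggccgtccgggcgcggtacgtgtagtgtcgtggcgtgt
Sc4mol (Msmo1) promoter, chr8:64733579-64733828, minus strand: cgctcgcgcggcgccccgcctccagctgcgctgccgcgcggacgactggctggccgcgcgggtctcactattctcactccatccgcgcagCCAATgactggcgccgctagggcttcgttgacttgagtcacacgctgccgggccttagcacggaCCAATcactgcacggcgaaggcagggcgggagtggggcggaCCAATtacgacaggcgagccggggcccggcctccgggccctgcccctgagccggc
Ggps1 promoter, chr13:14063489-14063738, minus strand: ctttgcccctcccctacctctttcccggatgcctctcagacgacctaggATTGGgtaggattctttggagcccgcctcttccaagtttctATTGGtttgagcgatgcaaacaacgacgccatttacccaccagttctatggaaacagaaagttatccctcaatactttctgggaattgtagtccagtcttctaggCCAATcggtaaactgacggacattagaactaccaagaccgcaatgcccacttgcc
Hmgcs1 promoter, chr13:119690101-119690350, plus strand: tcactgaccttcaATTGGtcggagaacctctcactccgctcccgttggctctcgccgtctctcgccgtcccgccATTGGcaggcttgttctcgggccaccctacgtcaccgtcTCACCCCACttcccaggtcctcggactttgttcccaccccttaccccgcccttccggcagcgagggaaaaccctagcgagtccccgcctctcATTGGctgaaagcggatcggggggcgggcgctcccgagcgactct

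CCAAT, searched on both strands, was found in a window of 20 of the 24 genes (83.33%), against 37.49% of the 27025 genes with at least 1 window. The 4 genes without it were Acat2, Scap, Mbtps1 and Mbtps2. The sterol regulatory element, searched on both strands as TCACNCCAC (reverse complement GTGGNGTGA), was found in Hmgcs1 alone of the 24 genes (4.167%), 137 bases before the start, and in 1.225% of all genes. The 2 motifs do not overlap in the Hmgcs1 window. A match is a string of letters and not a measured binding site, and many known elements differ from the letters searched.

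Depth ran from 11.6 to 23.6 M assigned fragments per retinal library and from 14.6 to 30 M per RPE/choroid library. Abca4 itself stood between 73.89 and 81.78 FPKM (fragments scaled to transcript length and depth) in KO retina, between 182.4 and 232.5 in KI retina and between 227.8 and 282.5 in WT retina. By Xist and Ddx3y, the KI retinas were all from females, 2 of 3 KO retinas and 1 of 3 WT retinas were from females, and every RPE/choroid library was from a male except KI library 2. Among the genes described, Nsdhl, Ebp and Mbtps2 are X-linked. Summed over 8 rod genes the retinal libraries held 18991 to 21029 FPKM, and summed over 8 RPE genes the RPE/choroid libraries held 6782 to 11403. The retinal libraries differed widely in lens genes. Summed over 8 of these, KO retinas held 373 to 11982 FPKM, KI retinas 231 to 5755 and WT retinas 26.1 to 552. WT RPE/choroid library 2 stood apart with 1962 FPKM of rod genes, against 70.1 to 375 in the other 8. Medians of the members in genotype comparisons and interactions that use it are given without it too, while most values of single members include it. The RPE/choroid libraries also held 3124 to 6446 FPKM of 6 skeletal muscle genes and 1214 to 3065 of 5 surface epithelium genes, so they are mixtures of tissue around the RPE.

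Per length of transcript, the members spanned more than an order of magnitude within each tissue. In retina the highest mean over 9 libraries was that of Fdps, the farnesyl diphosphate synthase gene, at 56.3 ± 4.74 FPKM (SD), followed by Insig1 at 46.4 ± 3.41 and Mbtps1, the gene of the first SREBP protease, at 38.2 ± 2.11. The lowest was Hsd17b7, a sterol ketoreductase gene of the steps after lanosterol, at 3.65 ± 0.355 FPKM. In RPE/choroid Insig1 was highest at 107.8 ± 17.7 FPKM, followed by the methylsterol oxidase gene Sc4mol at 83.5 ± 15.7 and Fdps at 70.3 ± 16, and Hsd17b7 was again lowest at 6.28 ± 0.931. Sqle, the squalene epoxidase gene, was 11th in this order in retina (24.6 ± 1.78 FPKM) and 4th in RPE/choroid (65.3 ± 15.5). Fdps and Sc4mol, and Sqle and Fdps, are neighbours in the RPE/choroid order and differ by less than their spread. The FPKM of each tissue were scaled by the authors in a separate table, so these orders hold within a tissue. Of the 2 Scap transcripts, the one of 4286 bases held 66.3 to 99.7% of the gene's FPKM in retina and 39.4 to 76.8% in RPE/choroid.

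Within a gene, values per library are given as CPM, here assigned fragments scaled to library size by the TMM method, and not as FPKM, because the deposited FPKM of a gene did not keep a constant ratio to its fragments. In RPE/choroid the ratio for Mbtps2, the gene of the second SREBP protease, was 1.33 to 1.47 times its mean in the libraries numbered 2 and 0.732 to 0.881 times in the others. In all 3 RPE/choroid genotypes, 9 of the 28 members were highest in library 2 by FPKM, against 30.1% of all genes, and 0 by CPM, against 4.35%. By CPM, 6 members (Idi1, Mvk, Sc4mol, Nsdhl, Hsd17b7 and Ggps1) were lowest in library 2 of every RPE/choroid genotype, against 5.22% of all genes. The cause was not tested.

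The clearest difference was between the tissues. Retina had less mRNA than RPE/choroid for most sterol-making enzymes and for both INSIG genes, and more for Pmvk and Ggps1. In edgeR's quasi-likelihood test over all 18 libraries, 25 of 28 members passed at a Benjamini-Hochberg adjusted p under 0.05, 4 higher and 21 lower in retina, where 91.8% of the 16222 genes tested passed, 45% higher and 46.9% lower. The median member was lower in retina by a log2 difference of -0.37, against -0.03 for all genes, and 22 of 28 members lay below 0 against 50.9% of all genes. Values of the 9 retinal and 9 RPE/choroid libraries did not overlap for 2 members higher in retina, against 36.5% of all genes, and for 15 members lower in retina, against 39.5%. In whole tissue, fewer cells of a type and less RNA per cell cannot be told apart.

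**Figure D1:**
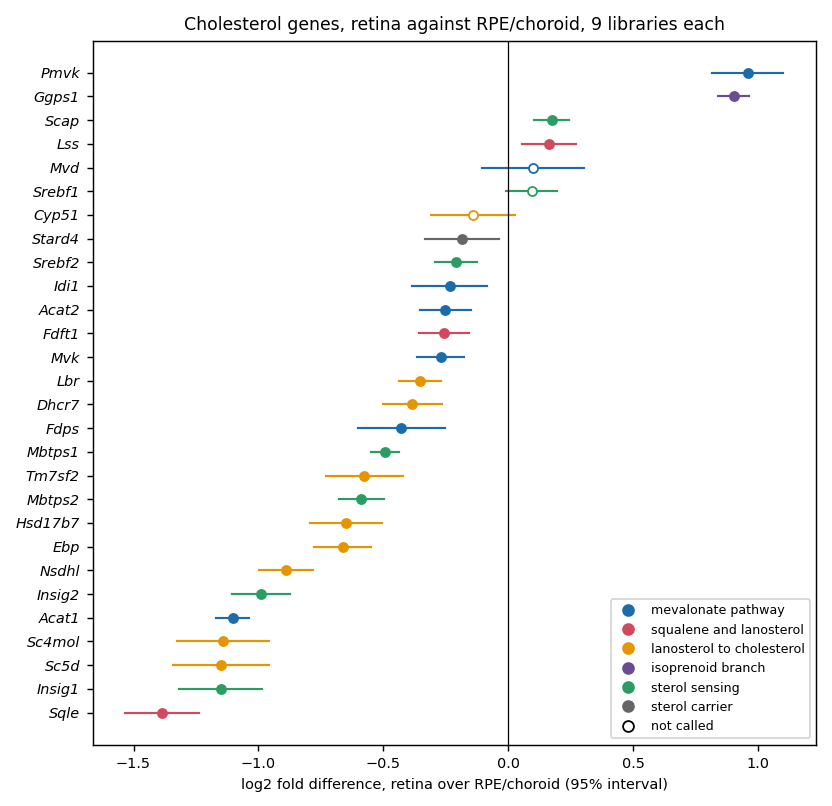
Log2 fold difference of retina over RPE/choroid on the horizontal axis, with bars for the 95% interval, for the 28 genes tested, ordered by size and coloured by role, from the fit of 9 retinal and 9 RPE/choroid libraries. Pmvk and Ggps1 lie near 0.9 and above, Sqle lies lowest at -1.39, and open points mark the 3 genes that did not pass.

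Of the 7 mevalonate pathway genes, 1 was higher in retina, 5 were lower and 1 did not pass. Pmvk, the phosphomevalonate kinase gene, ranged from 29.2 to 45.4 CPM with a median of 34.9 in retina, against 16.6 to 21.5 with a median of 18.2 in RPE/choroid. The tissues did not overlap, and the difference was log2 0.96 (SE 0.067, adjusted p = 3.28e-10, edgeR). Acat1, a mitochondrial thiolase known chiefly for ketone body and isoleucine metabolism, ranged from 76.8 to 99.4 with a median of 84.1 in retina, against 176.8 to 192 with a median of 181.4 in RPE/choroid, and was lower in retina by log2 -1.10 (SE 0.0319). Fdps (-0.43), Mvk, the mevalonate kinase gene (-0.27), Acat2, the cytosolic thiolase gene (-0.25), and Idi1, the isopentenyl diphosphate isomerase gene (-0.23), were lower by less, with overlapping values. Mvd, the mevalonate diphosphate decarboxylase gene, did not pass (log2 0.10, adjusted p = 0.336, edgeR).

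Of the genes that carry farnesyl diphosphate to lanosterol, Sqle showed the widest tissue gap of all members. Sqle (mm9 chromosome 15, 59146646 to 59162748) ranged from 55.2 to 67.4 CPM with a median of 60.5 in retina, against 98.4 to 204 with a median of 184.6 in RPE/choroid. Every retinal library lay below every RPE/choroid library, and retina stood at 38.3% of RPE/choroid (log2 -1.39, SE 0.069, adjusted p = 4.37e-12, edgeR). Its neighbours in the pathway differed far less. Fdft1, the squalene synthase gene, was lower in retina by log2 -0.26 and Lss, the lanosterol synthase gene, was higher by log2 0.16, both with overlapping values. The table gives Fdft1 the same locus as Ctsb, and likewise Tm7sf2 with 1110014N23Rik, Srebf1 with Rai1, Srebf2 with Mir33 and Mbtps2 with Yy2, and Acat2 has the near copy Acat3. How reads were shared out among such genes, and whether strand was used, is unknown, so values of these 6 members are uncertain.

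The 9 genes from lanosterol to cholesterol all lay below 0, and 8 of them passed with tissues that did not overlap. Sc4mol ranged from 48.5 to 72.2 CPM with a median of 61.1 in retina, against 100.6 to 165.4 with a median of 133.3 in RPE/choroid (log2 -1.14, SE 0.0855). Sc5d, the lathosterol oxidase gene, ranged from 37.6 to 54.5 with a median of 44.1 in retina, against 72.3 to 133.2 with a median of 95.8 in RPE/choroid (log2 -1.15, SE 0.0906). For both genes every retinal library lay below every RPE/choroid library. The decarboxylating dehydrogenase gene Nsdhl (-0.89), the sterol isomerase gene Ebp (-0.66), Hsd17b7 (-0.65), the sterol reductase genes Tm7sf2 (-0.58) and Lbr (-0.35), and Dhcr7, the gene of the reductase that makes cholesterol from its immediate precursor (-0.38), were lower by less. Cyp51, the lanosterol demethylase gene, did not pass (log2 -0.14, adjusted p = 0.0974, edgeR).

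The sterol-sensing genes split by tissue. Insig1 and Insig2 encode the anchors that hold the SCAP and SREBP complex in the endoplasmic reticulum. Insig1 ranged from 98.5 to 130.2 CPM with a median of 113.8 in retina, against 175.6 to 338.5 with a median of 255.1 in RPE/choroid (log2 -1.15, SE 0.0781). Insig2 ranged from 38.2 to 47.8 with a median of 42.8 in retina, against 73.8 to 92.1 with a median of 85.2 in RPE/choroid (log2 -0.99, SE 0.0554). The protease genes Mbtps2 (-0.59) and Mbtps1 (-0.49) and the SREBP2 gene Srebf2 (-0.21) were lower in retina too, with no overlap between tissues. Scap was higher in retina by log2 0.17 and Srebf1, which encodes the related factor for fatty acid genes, did not pass (0.09, adjusted p = 0.0734, edgeR). Stard4, which encodes a soluble sterol carrier, was lower in retina by -0.19 with overlapping values. Ggps1 (mm9 chromosome 13, 14144713 to 14155668) makes the geranylgeranyl diphosphate used to anchor small GTPases. It was higher in retina, and ranged from 73.6 to 87 CPM with a median of 78.6 in retina, against 38.1 to 49.3 with a median of 40.7 in RPE/choroid (log2 0.90, SE 0.0299).

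Leaving out single libraries changed the tissue call of 4 members. Idi1 lost its call without KO retina library 2 (adjusted p = 0.0512, edgeR) and Stard4 without KO retina library 2 (0.128) or WT retina library 2 (0.131). Cyp51 passed without KO or WT RPE/choroid library 2, and Srebf1 without any 1 of 5 libraries. With sex as a term, Idi1 (log2 -0.12, adjusted p = 0.170) and Stard4 (log2 -0.05, adjusted p = 0.493) did not pass.

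No member passed between genotypes in edgeR. DESeq2 called Sqle and Ggps1 in KO against WT RPE/choroid, where it called 538 of 15454 genes and edgeR 73. It called Sqle in KI against KO RPE/choroid, where it called 313 of 15454 genes and edgeR 70. In the other 4 comparisons DESeq2 called 0 members, and limma on log2 FPKM called 0 in all 6. For RPE/choroid of KO against WT, 0 of 28 members passed edgeR's test, where 0.472% of 15454 genes passed. At an unadjusted p under 0.05 there were 3 members, Sqle, Mvk and Ggps1, against 15.5% of all genes. The median member stood at log2 -0.16 in KO against WT, with 22 of 28 below 0, against -0.01 and 53.5% for all genes. Of the 19 genes counted as synthesis enzymes, mitochondrial Acat1 among them, 18 lay below 0 with a median of -0.19. The median of the 28 members rests on few libraries. It was -0.08 without KO library 2, -0.06 without WT library 0, and -0.22 without WT library 2, the one with the rod transcripts.

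Sqle had the largest KO value among the members. KO libraries 0, 1 and 2 held 141.8, 96.1 and 107.1 CPM of Sqle, and WT libraries held 189.4, 186 and 147.8. Every KO library lay below every WT library, the nearest being KO library 0 and WT library 2. The fitted change was log2 -0.60 (SE 0.147, 95% interval -0.94 to -0.27), which did not pass in edgeR (adjusted p = 0.132). It passed in DESeq2 (0.00385) and in edgeR without KO library 0 (log2 -0.78, 0.0365) or WT library 2 (log2 -0.71, 0.0454), and its adjusted p over the alternatives ran from 0.00385 to 0.490. Over all genes, edgeR called 59 of 15595 without KO library 0 and 462 of 15575 without WT library 2. By mean FPKM, Sqle was higher in WT than in KO. The authors' deposited table gives q = 0.00347 for Sqle in this comparison, and Sqle is the only 1 of 28 members under 0.05 there. That table gives q under 0.05 for 430 genes in all.

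Ggps1 lay lower in both Abca4 genotypes than in WT RPE/choroid. KO libraries held 40.7, 39.2 and 36.6 CPM, KI libraries 40.02, 39.7 and 38.2, and WT libraries 49.03, 47.1 and 47.1. The 6 mutant libraries lay between 36.6 and 40.7, below all 3 WT libraries, with no overlap. KO differed from WT by log2 -0.30 (SE 0.0563, adjusted p = 0.0603, edgeR) and KI from WT by log2 -0.28 (SE 0.0565, adjusted p = 0.376, edgeR), and both comparisons use the same WT libraries. The KO difference passed in DESeq2 (adjusted p = 0.00511) and in edgeR without WT library 2 (0.0348), and over the alternatives its adjusted p ran from 0.00511 to 1. KI differed from KO by log2 0.02 (95% interval -0.11 to 0.14).

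**Figure D2:**
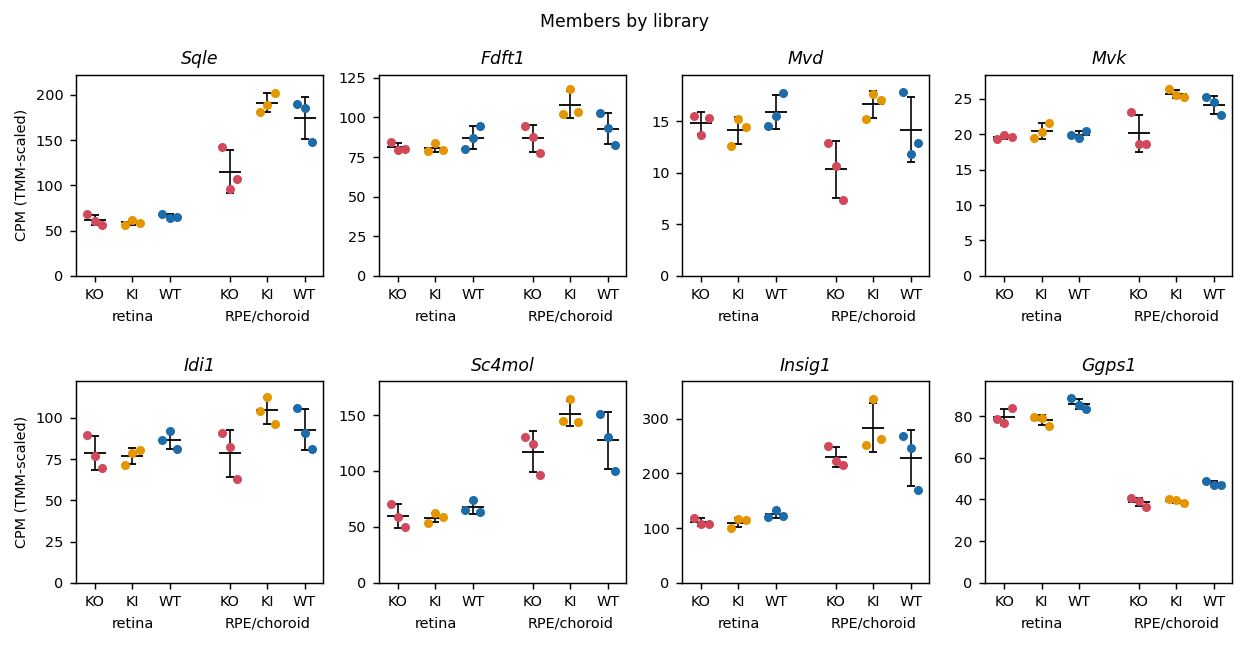
CPM (vertical axis, fragments scaled by TMM within each tissue) of 8 members in each library of KO, KI and WT retina and RPE/choroid; points are libraries 0, 1 and 2 from left to right, and bars give the mean and SD of 3 libraries. In RPE/choroid the 3 KO points of Sqle lie below all KI and WT points, and the 6 KO and KI points of Ggps1 lie below the 3 WT points.

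Mvk, the mevalonate kinase gene, held 23.2, 18.7 and 18.6 CPM in KO RPE/choroid, against 25.2, 24.5 and 22.7 in WT, and KO library 0 overlapped the WT libraries (log2 -0.26, adjusted p = 0.221, edgeR). Pmvk held 17.2, 17.5 and 16 in KO and 20.7, 18.1 and 19.3 in WT, with no overlap (log2 -0.20, adjusted p = 0.388, edgeR). Values without overlap were lower in KO for Sqle, Pmvk and Ggps1, 3 of 28 members against 11.5% of all genes. They were higher in KO for Scap and Mbtps2, 2 of 28 against 10.3% of all genes. Without WT library 2, Ebp, the sterol isomerase gene, passed edgeR's test as well (log2 -0.36, adjusted p = 0.0453). In that fit, which Sqle and Ggps1 passed too, 462 of 15575 genes passed, against 73 of 15454 with all libraries. Insig1 stood at log2 0.01 in KO against WT, with WT library 2 at 170.6 CPM and the other WT libraries at 268 and 246.5, and at -0.16 without WT library 2 (adjusted p = 0.458, edgeR) and 0.14 without WT library 0.

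In KI against KO RPE/choroid, most fitted values lay above 0. The comparison sets the allele with 2 substitutions against the -/- genotype. By fitted value 26 of 28 members were higher in KI than in KO, with a median of log2 0.20, where 48.7% of all genes lay below 0 and the median was 0.00. All 19 synthesis enzymes lay above 0, with a median of 0.25. In edgeR 0 of 28 members passed, where 0.453% of genes did, and 12 of 28 had an unadjusted p under 0.05 against 12.2% of all genes. Values did not overlap for 15 members higher in KI, against 11.3% of all genes, and for 0 members lower in KI, against 10.7%. Leaving out each of the 6 libraries in turn gave medians from 0.15 to 0.26, and without KI library 2, the only female, it was 0.23.

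**Figure D3:**
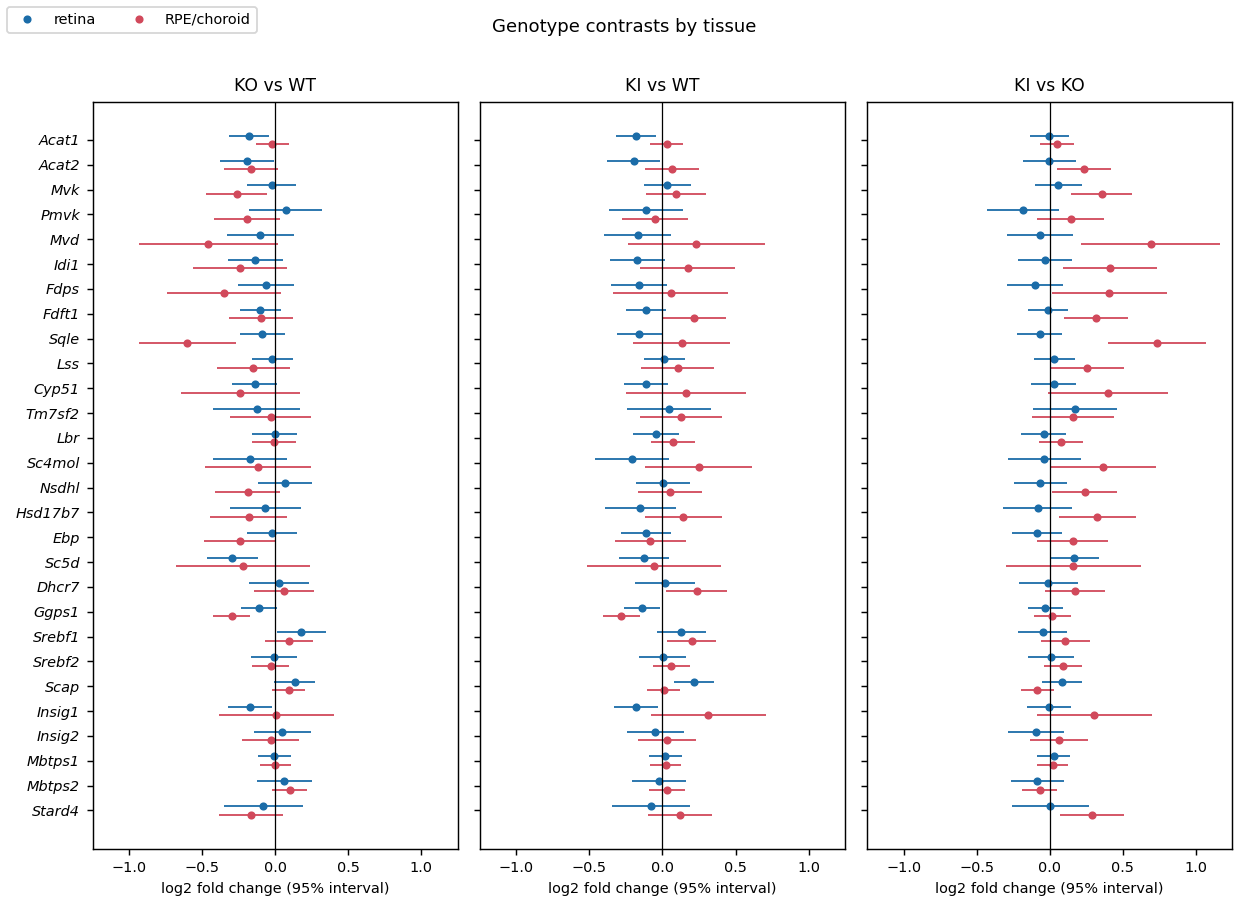
Fitted log2 fold change with its 95% interval for each member (rows, in pathway order) in KO against WT, KI against WT and KI against KO, with retina above RPE/choroid in each row. In the KI against KO panel, 26 of 28 RPE/choroid points lie right of 0, and the retinal points stay within 0.2 of it.

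Sqle again led. KI libraries 0, 1 and 2 held 181.6, 189.3 and 202.5 CPM, against 141.8, 96.1 and 107.1 in KO, with a gap between the groups. The difference was log2 0.73 (SE 0.147, 95% interval 0.40 to 1.07, adjusted p = 0.101, edgeR). It passed in DESeq2 (adjusted p = 1.41e-04) and in edgeR without KO library 0 (log2 0.91, adjusted p = 0.0172), and its adjusted p over the alternatives ran from 1.41e-04 to 0.344. Without KO library 0, edgeR called 74 of 15595 genes. The KO libraries are shared with the comparison of KO against WT.

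The 7 genes listed under the mevalonate pathway, mitochondrial Acat1 among them, all lay higher in KI than in KO, 5 of them with no overlap. Mvd held 15.2, 17.7 and 17.1 CPM in KI libraries, against 12.9, 10.7 and 7.39 in KO libraries (log2 0.69, SE 0.211, adjusted p = 0.242, edgeR). Every KO library lay below every KI library, and KO library 2 was the lowest of the 9 RPE/choroid libraries. Mvk held 26.4, 25.6 and 25.3 in KI, against 23.2, 18.7 and 18.6 in KO (log2 0.36, adjusted p = 0.177, edgeR), and passed without KO library 0 (0.0458). Idi1 held 104.4, 112.7 and 96.4 in KI, against 90.7, 82.4 and 62.8 in KO (log2 0.41, adjusted p = 0.304, edgeR). Fdps (0.41) and Acat2 (0.24) did not overlap either, while Pmvk (0.14) and Acat1 (0.05) did.

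All 3 genes from farnesyl diphosphate to lanosterol and 5 of the 9 that follow were without overlap, higher in KI than in KO. Fdft1 held 102.4, 117.9 and 103.6 CPM in KI and 94.7, 87.9 and 77.8 in KO (log2 0.31, adjusted p = 0.24, edgeR). Sc4mol held 145.1, 164.1 and 144.1 in KI and 130.7, 124.5 and 96.7 in KO (log2 0.37, adjusted p = 0.407, edgeR). Neither pair of groups overlapped, with KO library 2 lowest in each. Cyp51 (0.40), Hsd17b7 (0.32), Lss (0.25), Nsdhl (0.24) and Ebp (0.16) did not overlap either, some by narrow gaps. The lowest KI and highest KO values were 28.95 and 28.94 CPM for Nsdhl, 22.6 and 22.2 for Hsd17b7 and 32.9 and 32.1 for Lss. For Ebp they were 29.9 and 28.9 and for Cyp51 76.9 and 71.5. Of the sterol-sensing genes, Insig1 alone did not overlap, with 252.6, 335.7 and 263.8 in KI and 250, 222.6 and 216.4 in KO (log2 0.31, adjusted p = 0.522, edgeR). Stard4 held 29.7, 31.9 and 30.6 in KI and 26.8, 27.1 and 21.8 in KO (log2 0.29, adjusted p = 0.285, edgeR). Srebf2 stood at log2 0.09 and Scap at -0.08, with overlap.

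The authors' deposited table gives q under 0.05 for 6 of 28 members in KI against KO RPE/choroid. By mean FPKM all 6 were higher in KI. They are Sqle (q = 0.00347), Idi1 (0.0179), Mvd (0.0179), Cyp51 (0.022), Fdps (0.0474) and Sc4mol (0.049). The same table gives q under 0.05 for 347 genes in all. In the authors' tables for the 3 retinal comparisons and for KI against WT RPE/choroid, 0 of 28 members had q under 0.05, and the lowest q of any member there was 0.2. Among all genes, those with q under 0.05 numbered 354 in KI against WT RPE/choroid. In retina they numbered 474 in KO against WT, 290 in KI against WT and 323 in KI against KO.

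In KI against WT RPE/choroid, 0 of 28 members passed in edgeR, where 0.0647% of genes did, and 3, Ggps1, Dhcr7 and Srebf1, had an unadjusted p under 0.05 against 5.53% of all genes. The median was log2 0.08 with 4 of 28 members below 0, against 0.00 and 51.4% for all genes, and it was 0.03 without WT library 2 and 0.16 without WT library 0. Without overlap there was Mvk, higher in KI, against 5.28% of all genes, and Ggps1, lower in KI, against 4.56%. The gap for Mvk was narrow, with 25.29 CPM lowest in KI and 25.21 highest in WT. Dhcr7 (log2 0.23, adjusted p = 0.856) and Srebf1 (0.20, 0.839) had an unadjusted p under 0.05 in edgeR with overlapping values.

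Member values also differed between single RPE/choroid libraries. Over the 28 members, the median log2 distance from the tissue mean was 0.00, -0.09 and -0.19 in KO libraries 0, 1 and 2, 0.04, 0.18 and 0.11 in KI libraries, and 0.13, 0.02 and -0.09 in WT libraries. In KO library 2, 26 of 28 members lay below the mean, and in KI library 1, 26 lay above it. In WT library 2, 24 members lay below the mean. The same counts were not made over all genes, so these have no share to be set against. Sums of marker genes are in FPKM, which did not keep a constant ratio to fragments. The 8 RPE markers ran from 6782 to 7448 FPKM in KO, from 6886 to 11403 (library 2) in KI and from 8615 to 9063 in WT. By fitted values their median stood at log2 -0.11 in KO against WT and 0.10 in KI against KO. In edgeR 0 of these 8 genes passed in any RPE/choroid genotype comparison. Surface epithelium markers ran from 2018 to 2428 in KO, from 1821 to 3065 in KI and from 1214 to 2919 in WT, lowest in WT library 2. Fibroblast markers ran from 4089 to 4643 in KO, from 3702 to 4759 in KI and from 4647 to 5546 in WT, and myelin markers from 220.2 to 265.1 in KO, from 247.5 to 361.2 in KI and from 222.8 to 248.5 in WT. By fitted values the median myelin gene stood at log2 0.59 in KI against KO and the median fibroblast gene at -0.25 in KO against WT, with 0 genes of either list passing in edgeR in any RPE/choroid genotype comparison. The part of tissue makeup in the member values was not tested.

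**Figure D4:**
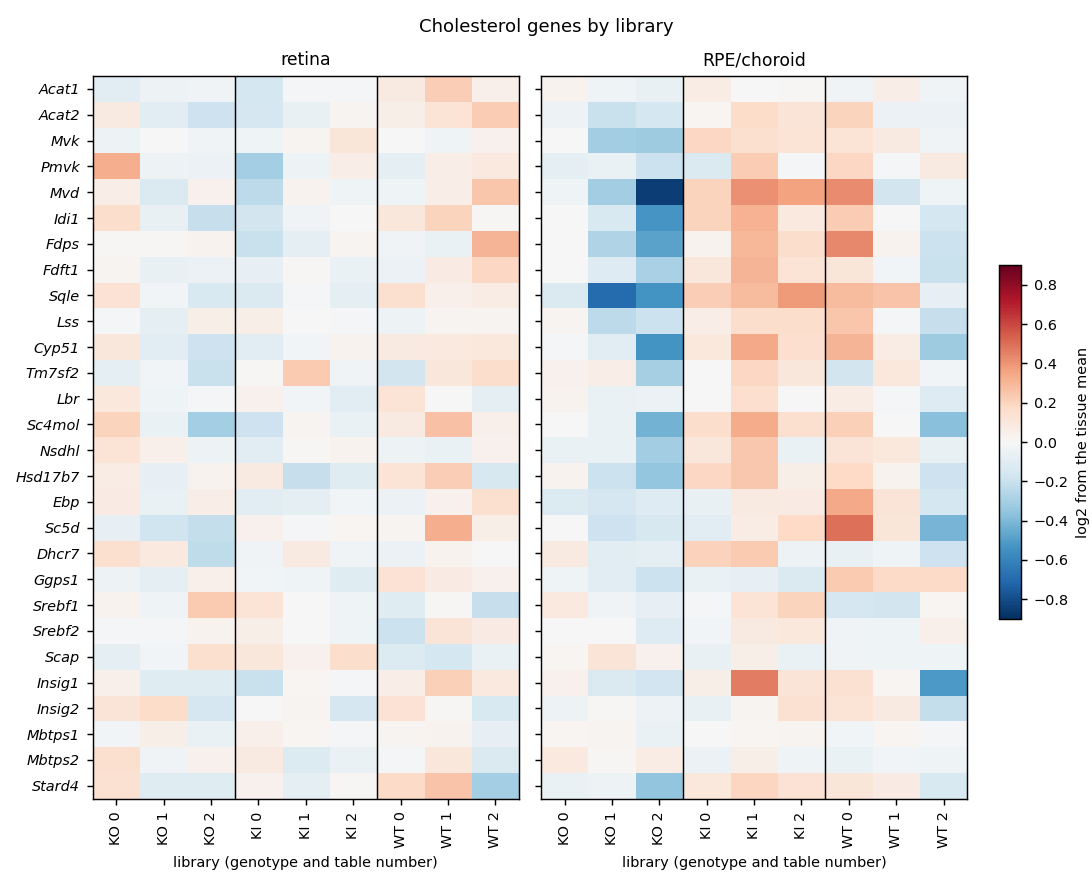
Log2 distance of each member (rows, in pathway order) from its mean over the 9 libraries of a tissue, in CPM, for each library of KO, KI and WT (columns), with red above and blue below the mean. In RPE/choroid, KO library 2 is below the mean in 26 of 28 rows and KI library 1 above it in 26, while the retinal libraries are paler. No such count was made over all genes.

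In retina the members were steadier, and the coefficient of variation fitted over all genes was lower there too (0.114, against 0.154 in RPE/choroid). Medians per library lay between -0.05 and 0.07 on the log2 scale. For KO against WT, 0 of 28 members passed in edgeR, where 0.98% of 14699 genes did, and 5 had an unadjusted p under 0.05 against 12.5% of all genes. The median was log2 -0.07 with 21 of 28 members below 0, against 0.00 and 51% for all genes. It was -0.04 with sex as a term, and without single libraries it lay between -0.03 and -0.08, with -0.04 without KO library 1 or WT library 2 and -0.03 without WT library 1. Sc5d had the largest KO value, with 42.2, 39.3 and 38.4 CPM in KO and 45.2, 55.8 and 46.2 in WT. Its groups did not overlap, and the change of log2 -0.29 did not pass (SE 0.0805, adjusted p = 0.121, edgeR). Acat1 (-0.18) and Insig1 (-0.17) did not overlap either. That makes 3 of 28 lower in KO against 9.19% of all genes, and 0 higher, against 8.68%. Of the 8 RPE markers, 4 passed in edgeR higher in KO against WT retina (median log2 1.04) and 0 in KI against WT (0.73). The 8 lens markers had medians of log2 4.53 in KO and 3.04 in KI against WT, with 0 passing. The part of tissue makeup in the retinal member values was not tested.

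In KI retina the fitted values against WT were small, with a median of log2 -0.11 and 19 of 28 members below 0, against 0.00 and 49.8% for all genes, and -0.06 without WT library 1. In edgeR 0 of 28 members passed, where 0.265% of genes did, and 6 had an unadjusted p under 0.05 against 8.5% of all genes. Values did not overlap for 8 members lower in KI, against 7.99% of all genes, and for 1 higher in KI, against 7.34%. The lower ones were Sqle, Cyp51, Idi1, Sc4mol, Acat1, Acat2, Insig1 and Ggps1. Insig1 held 99.98, 116.2 and 114.1 CPM in KI and 119.7, 133.1 and 121.9 in WT (log2 -0.18, SE 0.0701, adjusted p = 0.465, edgeR). Ggps1 held 79.8, 78.9 and 75.2 in KI and 88.6, 85.5 and 83.4 in WT (log2 -0.14, SE 0.0569, adjusted p = 0.517, edgeR). For both genes each KI library lay below each WT library.

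Scap was the member higher in KI retina, with 127.4, 122 and 132.6 CPM in KI and 108.9, 106.1 and 113.6 in WT (log2 0.22, SE 0.0638, adjusted p = 0.262, edgeR). All KI retinas were female and 2 of 3 WT retinas male, so sex and genotype are nearly confounded here. With sex as a term, the median of the 28 members was -0.02, against -0.11 without it, and 17 were below 0, against 19. KI against KO retina had 0 of 28 members passing in edgeR, where 1.26% of genes did, and 0 members with an unadjusted p under 0.05 against 11.7% of all genes. The median was -0.02 with 19 of 28 below 0, against 50.6% of all genes, and 0.01 without KO library 0 or KI library 0 or with sex as a term. Sc5d alone did not overlap, higher in KI, against 8.76% of all genes, with 0 lower in KI, against 8.74%.

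Whether the genotype effects differ between the tissues was tested as an interaction over 18 libraries. For KO, 0 of 28 members passed in edgeR, where 0.136% of genes did, and 3 had an unadjusted p under 0.05 against 12.3%. Sqle had the largest value, log2 0.50 (SE 0.167, adjusted p = 0.232, edgeR) as KO against WT stood at -0.09 in retina and -0.60 in RPE/choroid. The median was 0.07 with 11 of 28 below 0, against 47% of all genes, and it depended on single libraries. It was -0.01 without KO and 0.12 without WT RPE/choroid library 2, 0.01 without WT RPE/choroid library 0 or KO retina library 0, and 0.12 without KO retina library 2. Without WT retina library 2 it was 0.03, and without WT RPE/choroid library 1 it was 0.03. For KI, 0 of 28 passed, where 0.0555% of genes did, and 7 had an unadjusted p under 0.05 against 5.98%. All 19 synthesis enzymes lay below 0 in the KI interaction, with a median of -0.21. Over the 28 members 25 lay below 0, against 42.8% of all genes, with a median of -0.09. Without single libraries the median ran from -0.18 (WT RPE/choroid library 0) to -0.07 (KI RPE/choroid library 1). Without WT RPE/choroid library 2 it was -0.08, with 20 of 28 below 0. Insig1 had the largest KI value, log2 -0.49 (SE 0.189, adjusted p = 0.815, edgeR).

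The neighbouring pathways were taken as lists. They held 13 other SREBP2 targets and sterol enzymes, 16 SREBP1 targets of fatty acid synthesis and 18 further regulators of sterol sensing. Others held 7 oxysterol and sterol hydroxylase genes and 12 isoprenoid transfer genes. These lists had 0 genes passing in edgeR in any of the 6 genotype comparisons, where 0.0647% to 1.26% of all genes passed. At an unadjusted p under 0.05 there were 0 to 4 per list and comparison, against 5.53% to 15.5% of all genes. The highest count was 4 of 16 SREBP1 targets in KO against WT RPE/choroid, against 15.5% of all genes. All genes of these lists were tested in RPE/choroid, while in retina 15 of the 16 and 5 of the 7 were. Of 21 genes for uptake, trafficking, efflux and storage of cholesterol, 19 were tested, and 2 passed in retina and 0 in RPE/choroid. In RPE/choroid 0 to 3 of these had an unadjusted p under 0.05, against 5.53% to 15.5% of all genes. In retina 5 did in KO against WT (12.5% of all genes), 4 in KI against WT (8.5%) and 3 in KI against KO (11.7%). Cd36, which encodes a scavenger receptor for lipids, held 2.51, 2.46 and 1.59 CPM in KO retina, 3.71, 4.51 and 4.81 in KI retina and 4.91, 4.56 and 5.69 in WT retina. All KO retinas lay below the rest (KO against WT log2 -1.17, SE 0.198, adjusted p = 0.0112, and KI against KO 0.96, adjusted p = 0.0244, edgeR). Cd36 is also a gene of RPE and endothelium. The 8 RPE markers summed to 61.9 to 113 FPKM in KO retina and 31.6 to 43 in WT retina, and endothelial markers to 36.9 to 59.2 in KO and 50.9 to 62.5 in WT, and their part in the Cd36 value was not tested. Abca1, the cholesterol efflux transporter gene, was lower in KI than in KO retina, with 56.4, 48.5 and 46.7 in KI and 67.5, 61.2 and 72.2 in KO (log2 -0.40, SE 0.0825, adjusted p = 0.0255, edgeR). WT retina held 58.99, 60.03 and 53.6 CPM of Abca1, and neither KO nor KI passed against WT for it.

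Between the tissues, where 91.8% of all genes passed, 45% higher and 46.9% lower in retina, the shares of these lists that passed lay near that of all genes. The uptake and trafficking genes passed for 4 higher and 13 lower in retina, with a median of log2 -1.62. The lysosomal sterol carrier gene Npc2 (-2.90), the lysosomal acid lipase gene Lipa (-2.81), the lipoprotein receptor gene Lrp1 (-2.63) and the mitochondrial translocator gene Tspo (-4.80) were lower in retina. The hydroxylases passed for 1 higher and 6 lower in retina. Cyp27a1 (-2.53), Cyp39a1 (-2.68) and Hsd3b7 (-2.80), genes of bile acid and oxysterol metabolism, were lower, and Cyp46a1, the neuronal cholesterol hydroxylase gene, was higher by log2 3.52. The other SREBP2 targets split, 7 higher and 5 lower in retina with a median of 0.36. Cyb5r3, which encodes a reductase that supplies electrons to sterol oxidases, was lower by -2.01. SREBP1 targets passed for 6 higher and 9 lower in retina, and the 4 with the smallest p were Fads1 (-1.71), Acacb (-3.30), Elovl5 (-1.57) and Gpam (-1.57). The further regulators passed for 8 each way, and Rxra (-0.97), Sp1 (-0.85) and Mylip (-1.03) were lower in retina. Of the isoprenoid transfer genes, 6 were higher and 5 lower in retina, including Icmt (3.04) and Fntb (0.68) above 0 and Zmpste24 (-1.10) and Fnta (-0.59) below.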

How the data were processed

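Retina and RPE/choroid RNA of KO, KI and WT mice was sequenced as 100 bp pairs, 3 libraries per genotype and tissue. Per the submitters' processing notes, reads were handled with TopHat, Bowtie2 and Cufflinks on mm9, and versions, annotation and use of strand are unknown here. The deposited tables give expected counts of fragments per gene and FPKM per library, per the file headers, and 98.52% (retina) and 98.43% (RPE/choroid) of the counts are whole numbers. The rest were rounded. The authors' deposited comparison tables give p-values and q-values per gene, per the file headers.

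The test was edgeR's robust quasi-likelihood test on rounded fragments (edgeR 4.0.16, R 4.3.3, TMM scaling, filterByExpr), with 9 libraries per tissue in a fit for genotype and 18 in a fit for tissue and interactions. P-values were adjusted over all genes tested (Benjamini-Hochberg), and a call needed a value under 0.05. Biological variation came to 0.114 (retina) and 0.154 (RPE/choroid) as a coefficient. CPM were computed from fragments with TMM scaling, within a tissue for genotype and over 18 libraries for tissue. Levels between genes are FPKM. Log2 values are fitted fold changes, and SE and 95% intervals come from the same fit.

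Alternatives were DESeq2 1.42.0, RLE scaling, no filter, limma 3.58.1 on log2(FPKM + 1) and log2(FPKM + 0.1), a replicate block, a sex term, the compared pair of groups only and leaving out each library. The tables number libraries 0 to 2 and the labels 1 to 3, and nothing links the numbers. The members and lists were chosen with earlier results of these data known. Every member is covered, and in the other lists up to 4 called genes per list and comparison, by smallest p, are named, of which 4 are not reported here. Positions are in mm9, promoters from RefSeq in GRCm38.p6.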

Additional observations from a re-analysis of the deposited data

How the results depend on the processing

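Of the counts of members passing, those for KO against WT and KI against KO RPE/choroid moved. With DESeq2 they were 2 and 1, against 0 in edgeR, and leaving out single libraries gave 0 to 3 and 0 to 2. The counts were 0 in the 4 other genotype comparisons and both interactions under every alternative run, and for tissue they were 23 with a sex term and 24 to 27 without single libraries, against 25. Over members and alternatives, 3927 values kept their side of the threshold, 16 gained a call, 5 lost one and 0 reversed among called values.

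Counts over all genes moved by more than 1.5 times with some settings. DESeq2 gave 327 genes against 144 for KO and 115 against 39 for KI in retina, 324 against 185 for KI against KO retina, and in RPE/choroid 538 against 73, 44 against 10 and 313 against 70. It gave 242 against 22 and 37 against 9 in the KO and KI interactions. Limma on log2(FPKM + 1) gave 29, 9 and 20 in retina and 17, 5 and 26 in RPE/choroid, and with 0.1 added 27, 11, 20, 21, 2 and 23. The sex term gave 14 for KI and 289 for KI against KO retina, 2 and 36 in RPE/choroid, and 4 in the KI interaction. The compared pair alone gave 33, 5 and 198 in RPE/choroid. Leaving out single libraries gave 53 to 253, 15 to 29 and 103 to 202 in retina, 22 to 462, 2 to 14 and 28 to 74 in RPE/choroid, and 9 to 337 and 2 to 10 in the interactions. The causes were not tested.

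The replicate block on the table number called 0 members in the 6 genotype comparisons and 2 interactions and 25 between tissues. It moved the counts over all genes to 28, 4 and 36 in RPE/choroid. Deviations of same-numbered libraries correlated by -0.461 to 0.215 in retina and -0.118 to 0.243 in RPE/choroid in CPM, and by -0.367 to 0.593 and 0.099 to 0.533 in FPKM, against -0.513 to 0.536 and -0.539 to 0.27 for different numbers in FPKM. As not every pair exceeded 0.1, the libraries were not treated as paired. Every tested member had at least 73 fragments in each library, and 3 libraries per group limit the precision.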
